A study of Mus musculus with 12 samples.

Results

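The 10 genes described here belong to the fibroblast growth factor (FGF) pathway. They are the receptors Fgfr1, Fgfr2, Fgfr3 and Fgfrl1, the ligands Fgf1 and Fgf2, the feedback inhibitors Spry2 and Spry4, and the transcription factors Etv4 and Etv5. They were chosen by symbol from the 48709 genes that each library's table lists, and all 10 had enough counts to be among the 15571 genes tested.

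Astrocytes were taken from brains of adult C57BL/6 mice (postnatal day 90 to 120) by selection for the surface antigen ACSA-2, and their RNA was sequenced 24 h after transient middle cerebral artery occlusion (tMCAO), a stroke model in which an artery to 1 hemisphere is blocked and reopened. Every mouse carried Gfap-CreERT2+/-, a Cre recombinase driven by the Gfap promoter and activated by tamoxifen, together with homozygous floxed alleles (f/f) that Cre deletes. Mice 296, 297 and 474, labelled wild-type (WT), were given corn oil, and mice 295, 298 and 300, labelled knockout (KO), were given tamoxifen, so the effects of the drug and of the deletion cannot be told apart. The occluded (ipsilateral) and the opposite (contralateral) hemisphere were kept apart, so the 6 mice gave 12 libraries in 4 groups of 3. The targeted gene and the extent of its deletion are not reported here, and directions between genotypes are between libraries with these labels.

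FGF ligands bind receptor tyrosine kinases together with heparan sulphate, and the activated receptors signal through adaptor proteins, RAS and the kinase ERK. ERK signalling raises the transcription of the ETS factors Etv4 and Etv5 and of Sprouty proteins such as Spry2 and Spry4, which in turn dampen the pathway. In the brain Fgfr3 is a known marker of astrocytes, and FGF2 is a growth factor that astrocytes make and that has been studied after injury.

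The libraries held 11187723 to 15780600 counts and 18292 to 19024 genes with at least 1 count. The summed level of 8 astrocyte markers was 13404 to 17331 CPM (read counts scaled to library size by TMM) in WT contralateral libraries, 8721 to 10458 in WT ipsilateral, 18303 to 22222 in KO contralateral and 14928 to 23040 in KO ipsilateral ones, and none of the 8 was at 0 in any library. Oligodendrocyte markers were present too, with sums of 17785 to 19127, 13703 to 21690, 5518 to 7729 and 9753 to 23254 CPM in the same order, the highest being the KO ipsilateral library of mouse 300. Microglial and macrophage markers summed to 395 to 474, 732 to 1168, 676 to 1103 and 276 to 1919.8 CPM. These are bulk libraries, so fewer cells of a type and less RNA per cell cannot be told apart. Mouse 296 had 8 and 4 counts of Xist, the RNA of the inactive X chromosome, against 9140 to 29592 in the other mice, and the labels give no sex.

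Fgfr3 was the most abundant of the 10 genes in all 4 groups. On the TPM scale, which corrects for transcript length, its mean level was 828 ± 104 in WT contralateral, 323 ± 94.7 in WT ipsilateral, 1121 ± 67.4 in KO contralateral and 651 ± 179 in KO ipsilateral libraries (SD, n = 3 each), and its libraries did not overlap those of the next gene in any group. Fgfr1 was second in both contralateral groups (188 ± 67.7 TPM in WT, 192 ± 11.9 in KO) and Spry2 in both ipsilateral groups (149.7 ± 32.3 in WT, 215 ± 1.28 in KO), although Spry2 and Fgfr1 overlapped in WT ipsilateral libraries. Fgf2 had the lowest mean of the 10 in every group, at 10.4 ± 1.99 to 18.3 ± 9.78 TPM, although its WT ipsilateral libraries overlapped those of Etv4. In WT contralateral libraries the ranks from Fgfr2 (109 ± 10.8 TPM) through Spry2, Fgf1, Fgfrl1 and Etv5 to Etv4 (54.6 ± 19.6 TPM) were each not separated from the next, since neighbouring genes had overlapping libraries. Spry4 and Fgf2 stood apart below them there, at 15.9 ± 2.95 and 10.4 ± 1.99 TPM.

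**Figure D1:**
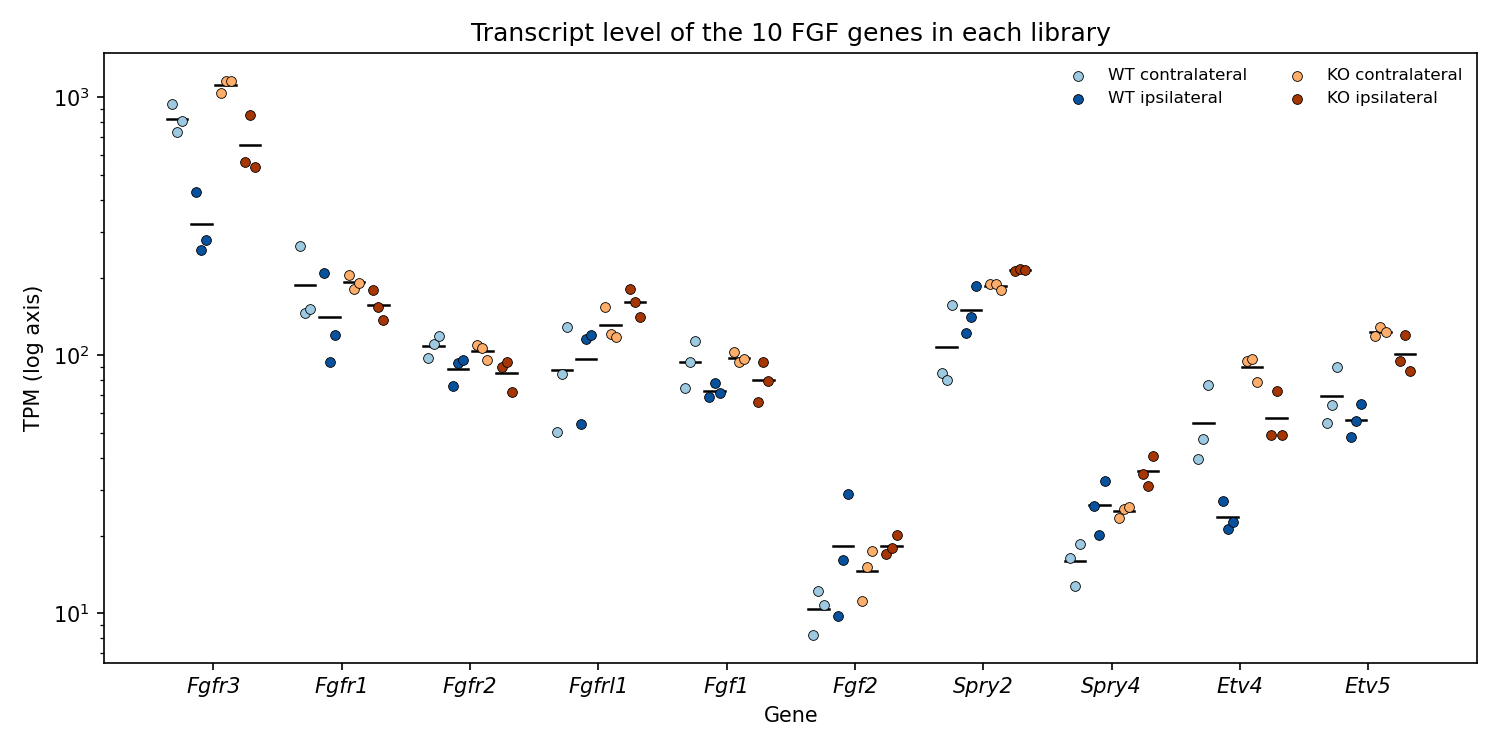
TPM (log axis) of the 10 genes in each of the 12 libraries, coloured by group, with a line at each group mean. Fgfr3 lies above every other gene in all groups, at a mean of 323 TPM in WT ipsilateral and 651 to 1121 TPM in the KO libraries.

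The comparison of the hemispheres asks how these genes differed after the occlusion within each genotype, and that of the genotypes asks how they differed on either side. In WT mice Fgfr3 and Etv4 fell in the ipsilateral hemisphere in the fit without pairing, and none of the 10 was called higher. Over all genes tested, 9.61% were called higher and 9.54% lower in that comparison (edgeR quasi-likelihood test, Benjamini-Hochberg adjusted p under 0.05). In KO mice 0 of the 10 passed in either direction, against 5.45% higher and 0.841% lower over all genes. The hemispheres are of the same mice, and with the mouse as a block more genes passed. In WT mice Fgf2 and Spry4 were then called higher and Fgfr1, Fgfr2, Fgfr3 and Etv4 lower. In KO mice Spry4 was called higher and Fgfr3 lower. Of all 15571 genes tested, the fit with the mouse as a block called 4641 in WT and 2498 in KO mice, in either direction. Between genotypes, 3 of the 10 were higher in KO than in WT ipsilateral libraries (Etv4, Etv5 and Fgfr3), where 4.33% of all genes were called higher and 1.98% lower, and 0 of the 10 were called contralaterally, where 0.0835% were called higher and 1.41% lower.

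All 10 fitted changes were above 0 in the KO against WT ipsilateral comparison, with a median log2 fold change of 0.59 against 0.022 over all genes tested, and 7 of 10 were above 0 contralaterally, with a median of 0.40 against -0.0016. The median was -0.36 for the WT and -0.12 for the KO comparison of hemispheres, where all genes had -0.058 and -0.011. Comparisons that use the same libraries are not independent, since the WT ipsilateral group enters both the WT comparison and the ipsilateral one.

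Groups of 3 did not overlap for 4 of the 10 genes in the WT comparison (Spry4 higher, Fgfr2, Fgfr3 and Etv4 lower), where 34% of all genes did not overlap. The number was 5 in the KO comparison (Fgfrl1, Spry2 and Spry4 higher, Fgfr3 and Etv4 lower), where the share over all genes was 38.8%. Between genotypes it was 4 contralaterally (Fgfr3, Spry2, Spry4 and Etv5, all higher in KO; 24.5% of all genes) and 6 ipsilaterally (the same 4 with Fgfrl1 and Etv4, all higher in KO; 23.9% of all genes).

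**Figure D2:**
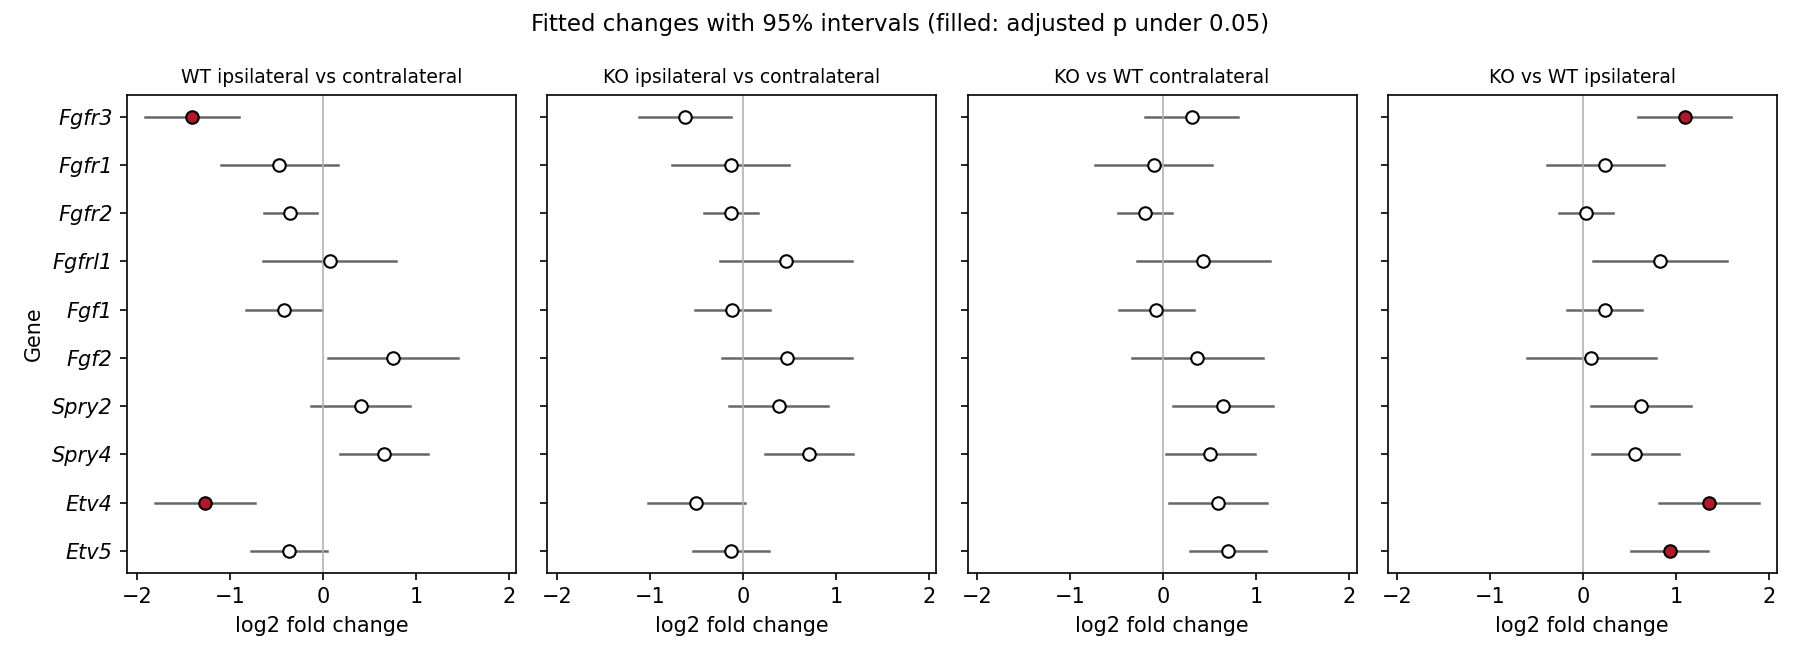
Fitted log2 fold changes (x axis) of the 10 genes (y axis) with 95% confidence intervals in 4 comparisons, filled where the edgeR adjusted p was under 0.05. The filled points are Fgfr3 (-1.41) and Etv4 (-1.26) in WT mice and Fgfr3 (1.09), Etv4 (1.35) and Etv5 (0.93) in the ipsilateral comparison of genotypes.

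Among the receptors, Fgfr3 varied most. Its gene lies at chr5:33721674-33737068 on the plus strand of mm10 (GENCODE annotation). WT contralateral libraries had 2121, 1561 and 1883 CPM in mice 296, 297 and 474, and their ipsilateral libraries had 942.5, 573 and 583 CPM. KO contralateral libraries had 2134, 2357.5 and 2389 CPM in mice 295, 298 and 300, and their ipsilateral libraries had 1200.2, 1855 and 1411 CPM. The ipsilateral libraries of both genotypes were below all contralateral libraries of that genotype, and every KO library was above every WT library of the same side.

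In WT mice Fgfr3 fell from 1855 ± 281 to 699 ± 211 CPM (SD, n = 3 per group), a log2 fold change of -1.41 ± 0.23 (SE; edgeR adjusted p = 0.00284) or 0.377 of the contralateral level. In KO mice its means were 2293 ± 139 and 1489 ± 334 CPM, a log2 fold change of -0.62 ± 0.23 with a 95% interval of -1.12 to -0.12, which did not pass (edgeR adjusted p = 0.117). With the mouse as a block it did pass, at -0.65 ± 0.16 (edgeR adjusted p = 0.0327). Its level was 2.13-fold higher in KO than in WT ipsilateral libraries (1.09 ± 0.23 log2, edgeR adjusted p = 0.0196), whereas the contralateral difference of 0.31 ± 0.23 did not pass (95% interval -0.19 to 0.80, edgeR adjusted p = 0.544). The ipsilateral call was lost in 6 of 12 fits that left out a library or a mouse (without WT ipsilateral library 297, KO ipsilateral library 298, or mouse 297, 298, 300 or 474), with adjusted p up to 0.126 and differences of 0.89 to 1.37. It was also lost in a fit of the 2 groups compared (edgeR adjusted p = 0.0978). The KO hemispheres passed without KO ipsilateral library 298 (-0.80, edgeR adjusted p = 0.0415).

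Fgfr1 and Fgfr2, the other kinase receptors measured in quantity, differed less. Fgfr1 had 687, 356 and 403 CPM in WT contralateral libraries and 521, 240.2 and 285 CPM in WT ipsilateral ones, the first of each being mouse 296. KO libraries had 479, 420.3 and 449 CPM contralaterally and 436, 381 and 414 CPM ipsilaterally. Mouse 296 thus stood above all other libraries on either side, both WT groups spread widely, and no comparison of Fgfr1 passed the main test (WT hemispheres -0.47 ± 0.29, edgeR adjusted p = 0.278). With the mouse as a block the WT hemispheres did pass (-0.49 ± 0.11, edgeR adjusted p = 0.0109). Without mouse 296 the fall in WT mice passed at -0.52 (edgeR adjusted p = 0.0443; -0.85 and 0.0373 without its ipsilateral library alone) and the KO against WT ipsilateral difference at 0.65 (0.0328).

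Fgfr2 is a receptor also known from oligodendrocytes. It had 222, 237 and 280 CPM in WT contralateral libraries and 169, 211 and 201 CPM in WT ipsilateral ones, without overlap. The change was -0.35 ± 0.13 (95% interval -0.64 to -0.061, edgeR adjusted p = 0.0852), and with the mouse as a block it passed at -0.35 ± 0.11 (0.0397). KO libraries had 227, 219.8 and 200.1 CPM contralaterally and 195, 206 and 191 CPM ipsilaterally, with overlap (-0.13 ± 0.13, edgeR adjusted p = 0.558). Neither genotype comparison passed (contralateral -0.19 ± 0.13, ipsilateral 0.027 ± 0.13). The annotated span of Fgfr2 shares exonic bases with Ctbp2, which had 276 to 713 counts, so a part of its reads may have been assigned to either gene.

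Fgfrl1 encodes an FGF-binding receptor that lacks the kinase domain. WT libraries spread widely, with 44.4, 69.9 and 117 CPM contralaterally and 46.0, 100.1 and 97.0 CPM ipsilaterally. KO libraries had 122, 95.7 and 94.5 CPM contralaterally and 150.3, 135 and 145 CPM ipsilaterally, so all KO ipsilateral libraries were above all KO contralateral and all WT ones. The KO against WT ipsilateral difference of 0.82 ± 0.33 had a 95% interval of 0.10 to 1.54 and did not pass (edgeR adjusted p = 0.169), nor did the KO hemispheres (0.46 ± 0.33, 0.380). Fgfr4, the remaining kinase receptor and not one of the 10 genes, had 0.66 to 4.91 CPM and did not pass in any comparison.

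The make-up of the receptor transcripts differed with these levels. Fgfr3 made up 73.6 ± 1.49% of the summed TPM of Fgfr1 to Fgfr4 in WT contralateral libraries and 57.8 ± 2.12% in WT ipsilateral ones, where Fgfr1 had 24.7 ± 4.10% and Fgfr2 16.9 ± 5.45% (SD, n = 3 each). In KO libraries the Fgfr3 share was 79.0 ± 1.90% contralaterally and 72.1 ± 5.06% ipsilaterally. The sum itself was 1127 ± 160 and 556 ± 142 TPM in WT contralateral and ipsilateral libraries and 1419 ± 52.1 and 896 ± 188 TPM in KO ones. The Fgfr3 shares of WT ipsilateral libraries (56.0 to 60.1%) lay below those of all other libraries, the nearest being the KO ipsilateral library of mouse 295 at 67.4%.

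**Figure D3:**
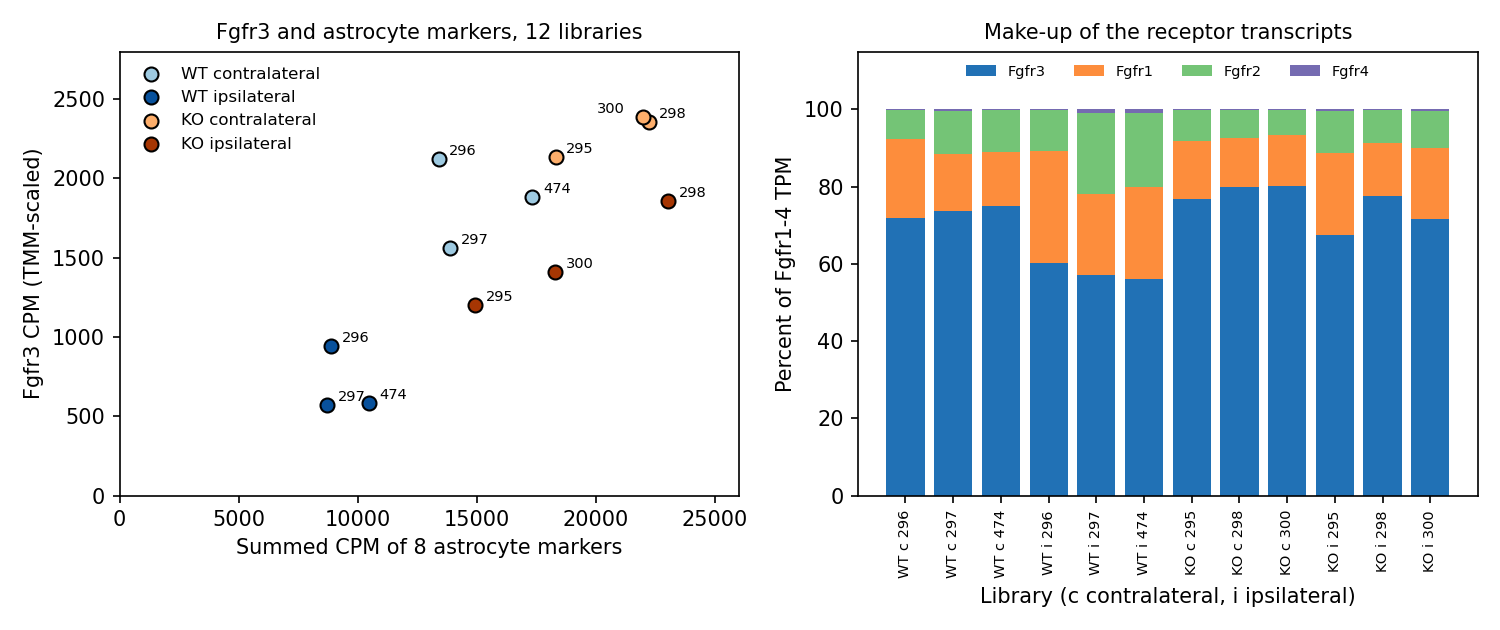
Left, Fgfr3 level (CPM) against the summed CPM of 8 astrocyte markers in each library, numbered by mouse and coloured by group; right, percent of the summed Fgfr1 to Fgfr4 TPM taken by each receptor. WT ipsilateral libraries have both the lowest marker sums (8721 to 10458 CPM) and the lowest Fgfr3 shares (56.0 to 60.1%).

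The ligands Fgf1 and Fgf2 encode growth factors that leave cells without a classical secretion signal. Fgf2 had 16.3, 23.1 and 21.98 CPM in WT contralateral libraries and 19.2, 31.6 and 52.65 CPM in WT ipsilateral ones. In KO libraries it had 19.6, 27.6 and 31.9 CPM contralaterally and 30.2, 33.4 and 46.3 CPM ipsilaterally. Groups overlapped in both genotypes, although the ipsilateral library was the higher of the pair in 6 of 6 mice. The WT change of 0.75 ± 0.32 (95% interval 0.051 to 1.46) did not pass (edgeR adjusted p = 0.121), and with the mouse as a block it passed at 0.66 ± 0.19 (0.0325). It also passed without WT ipsilateral library 296 (1.06, edgeR adjusted p = 0.0257). The KO change was 0.47 ± 0.32 (95% interval -0.23 to 1.17, edgeR adjusted p = 0.360). Fgf2 shares exonic bases with Nudt6 on the opposite strand (38 to 69 counts per library), and whether counting used the strand is not given in the sources used here, so reads of the pair could not be separated.

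Fgf1 had 109, 129.9 and 171 CPM in WT contralateral libraries and 97.5, 114 and 96.1 CPM in WT ipsilateral ones. KO libraries had 137, 124 and 129.99 CPM contralaterally and 91.2, 132 and 137 CPM ipsilaterally. It was lower ipsilaterally in 3 of 3 WT mice and in 1 of 3 KO mice, with overlapping groups in both, and none of its comparisons passed (WT hemispheres -0.42 ± 0.19, 95% interval -0.82 to -0.015, edgeR adjusted p = 0.133). Neither ligand differed between genotypes beyond its spread, the ipsilateral differences being 0.23 ± 0.19 for Fgf1 (95% interval -0.17 to 0.64) and 0.085 ± 0.32 for Fgf2 (-0.61 to 0.78).

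Of 16 other FGF ligands, only Fgf7 and Fgf18 had enough counts to be tested, and 0 of these 2 passed in any comparison. Fgf9, a ligand known from neurons and glia, had 81 counts over all 12 libraries. The 4 intracellular FGF homologous factors, which bind sodium channels and not FGF receptors, were all tested. Among them Fgf11 fell in WT mice (-1.36 ± 0.41, edgeR adjusted p = 0.0383) and Fgf13 was higher in KO than in WT ipsilateral libraries (1.13 ± 0.30, 0.0484).

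The Sprouty genes encode inhibitors that ERK signalling induces. Spry4 had 23.7, 17.4 and 27.8 CPM in WT contralateral libraries and 36.4, 28.8 and 43.2 CPM in WT ipsilateral ones. KO libraries had 30.8, 32.9 and 34.15 CPM contralaterally and 47.55, 43.4 and 69.1 CPM ipsilaterally. Ipsilateral libraries lay above contralateral ones without overlap in both genotypes, and KO above WT libraries on both sides. No comparison of Spry4 passed the main test (WT hemispheres 0.66 ± 0.22, edgeR adjusted p = 0.0551; KO hemispheres 0.71 ± 0.22, 0.0722; genotypes contralaterally 0.51 ± 0.22, 0.318, and ipsilaterally 0.56 ± 0.22, 0.154). With the mouse as a block both comparisons of hemispheres passed, at 0.66 ± 0.14 in WT (edgeR adjusted p = 0.00848) and 0.68 ± 0.13 in KO mice (0.0172). They also passed without WT contralateral library 474 (0.86, edgeR adjusted p = 0.0433) and without KO ipsilateral library 298 (0.85, 0.0335). DESeq2 called Spry4 in both (0.0276 in WT, 0.0273 in KO mice), and the TPM fit called it in WT mice.

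Spry2 had 56.4, 49.5 and 106.6 CPM in WT contralateral libraries and 78.0, 91.5 and 112 CPM in WT ipsilateral ones. Its KO libraries had 113, 112 and 108 CPM contralaterally and 133, 136 and 165 CPM ipsilaterally. The WT contralateral library of mouse 474 was about as high as the KO contralateral ones, and the other WT libraries of that side were far below. None of the comparisons passed (WT hemispheres 0.41 ± 0.25, edgeR adjusted p = 0.269; KO hemispheres 0.38 ± 0.24, 0.330; genotypes contralaterally 0.65 ± 0.25, 0.261, and ipsilaterally 0.62 ± 0.25, 0.162). Without mouse 474 Spry2 was called higher in KO mice on both sides (contralateral 1.066, edgeR adjusted p = 0.00939; ipsilateral 0.77, 0.0139) and in the ipsilateral hemisphere of WT mice (0.68, 0.0358).

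Etv4 and Etv5 encode ETS factors of the PEA3 group, which ERK signalling induces and activates. Etv4 (chr11:101769742-101785371, minus strand, mm10) had 38.7, 43.8 and 77.4 CPM in WT contralateral libraries and 25.8, 20.45 and 20.4 CPM in WT ipsilateral ones. KO libraries had 84.6, 85.4 and 70.8 CPM contralaterally and 45.5, 68.2 and 56.4 CPM ipsilaterally. Ipsilateral libraries lay below contralateral ones without overlap in both genotypes, and KO ipsilateral libraries lay above WT ipsilateral ones. In WT mice Etv4 fell from 53.3 ± 21.0 to 22.2 ± 3.08 CPM (-1.26 ± 0.25, edgeR adjusted p = 0.00575), to 0.416 of the contralateral level. In KO mice the means were 80.3 ± 8.20 and 56.7 ± 11.4 CPM (-0.50 ± 0.24, 95% interval -1.02 to 0.022, edgeR adjusted p = 0.206). The ipsilateral level was 2.55-fold higher in KO mice (1.35 ± 0.25, edgeR adjusted p = 0.0120), and the contralateral difference was 0.59 ± 0.24 (0.291). Of 12 fits without a library or a mouse, 8 kept the ipsilateral call, and it was lost without WT ipsilateral library 297 or mouse 297, 298 or 300, with adjusted p up to 0.0901. The differences were 1.19 to 1.502.

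Etv5 (chr16:22381309-22439719, minus strand, mm10) had 70.7, 78.2 and 120.1 CPM in WT contralateral libraries and 60.3, 71.4 and 77.35 CPM in WT ipsilateral ones. KO libraries had 139, 149.8 and 146 CPM contralaterally and 117, 149.3 and 132 CPM ipsilaterally. KO libraries were above WT libraries on both sides, while the hemispheres overlapped in both genotypes. Its level was 1.90-fold higher in KO than in WT ipsilateral libraries (133 ± 16.3 against 69.7 ± 8.63 CPM; 0.93 ± 0.19, edgeR adjusted p = 0.0170). The contralateral means were 145 ± 5.35 and 89.7 ± 26.6 CPM (0.69 ± 0.19, 95% interval 0.29 to 1.10, edgeR adjusted p = 0.103). The ipsilateral call held in 5 of 12 fits without a library or a mouse, with differences of 0.82 to 1.03. It was lost without WT ipsilateral library 296 or 297, KO ipsilateral library 298, or mouse 295, 297, 298 or 300 (adjusted p up to 0.103), and in a fit of the 2 groups compared (0.0502). Neither comparison of hemispheres passed (WT -0.36 ± 0.19, edgeR adjusted p = 0.194; KO -0.13 ± 0.19, 0.686).

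The WT contralateral library of mouse 474 was the highest of its group for Fgf1, Fgfr2, Fgfrl1, Spry2, Spry4, Etv4 and Etv5. Without that library Etv4 (0.99, edgeR adjusted p = 0.0409), Etv5 (0.996, 0.0278) and Spry2 (1.10, 0.0268) were called higher in KO than in WT contralateral libraries.

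**Figure D4:**
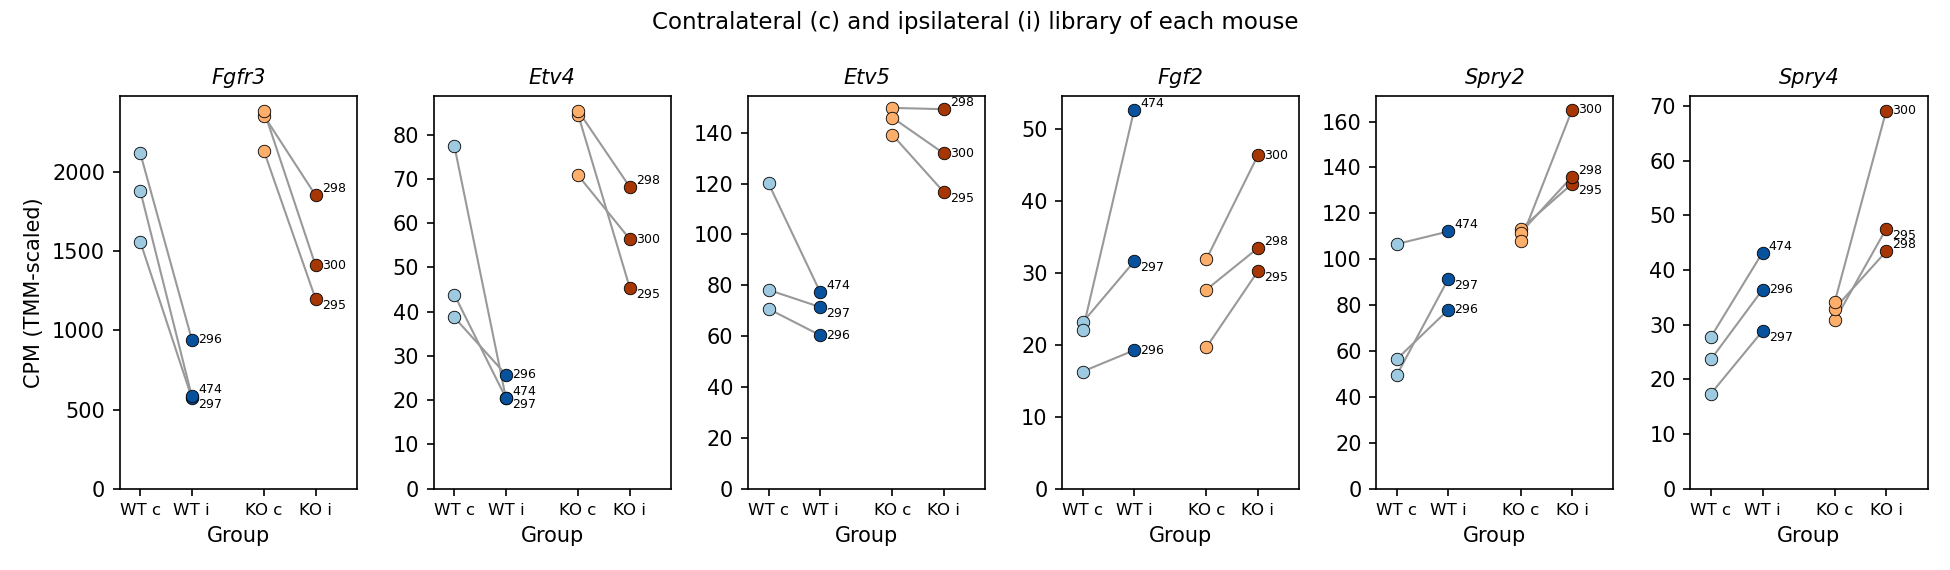
CPM of 6 of the genes, with a line joining the contralateral (c) and ipsilateral (i) library of each numbered mouse. Fgfr3, Etv4 and Etv5 are lower and Fgf2, Spry2 and Spry4 higher in the ipsilateral library of 6 of 6 mice, a share not computed for all genes.

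Within mice the genes thus differed in direction. Fgfr1, Fgfr2, Fgfr3, Etv4 and Etv5 were lower in the ipsilateral library of 6 of 6 mice, and Fgf2, Spry2 and Spry4 were higher in 6 of 6. The share of all genes with the same direction in 6 of 6 mice was not computed, so this is not read as particular to these genes. Fgfrl1 was higher ipsilaterally in 3 of 3 KO and 2 of 3 WT mice. For Fgfr3 the log2 ratio of the hemispheres was -1.69 to -1.17 in WT and -0.83 to -0.35 in KO mice, without overlap, and for Etv4 it was -1.92 to -0.59 and -0.90 to -0.32, with overlap. The test of this difference, the interaction of genotype and hemisphere, called 0 of the 10 genes and 0% of all genes tested, with 763 of 15571 genes at an unadjusted p under 0.05 and 12 genes called by DESeq2. None of these was among the 10, for 3 of which (Fgf2, Spry4 and Etv4) DESeq2 gave no adjusted p. Its largest values were 0.78 ± 0.32 for Fgfr3 (95% interval 0.080 to 1.49, edgeR adjusted p = 0.948) and 0.76 ± 0.34 for Etv4 (0.019 to 1.51, 0.948). A larger fall in WT than in KO mice is therefore not shown for either gene.

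The astrocyte markers moved with these groups. Of the 8 markers, 5 fell in WT ipsilateral libraries (median of the 8, -0.76), where 9.54% of all genes were called lower. In the ipsilateral comparison of genotypes 6 were higher in KO (median 0.99), where 4.33% of all genes were called higher. Gfap rose in KO ipsilateral libraries (1.80 ± 0.36, edgeR adjusted p = 0.0188). In WT mice 296, 297 and 474 Gfap had 1136, 1397 and 1057 CPM contralaterally and 1629, 1740 and 2317 CPM ipsilaterally. It was thus higher ipsilaterally in each WT mouse too, although not called there. The summed marker level gives most weight to abundant markers. Slc1a2 alone had 3672 of 8881 CPM in WT ipsilateral library 296 and 10558 of 23040 CPM in KO ipsilateral library 298. The sum includes Gfap, which was higher ipsilaterally where most of the 8 were lower. As a percent of the summed marker level, a ratio chosen after the data were seen, Fgfr3 was 10.9 to 15.8% in WT contralateral, 5.58 to 10.6% in WT ipsilateral, 10.6 to 11.7% in KO contralateral and 7.72 to 8.05% in KO ipsilateral libraries. On this ratio the hemispheres of Fgfr3 still did not overlap in either genotype. Its KO ipsilateral libraries lay within the range of the WT ipsilateral ones. The WT hemispheres of Etv4 did overlap, at 0.289 to 0.447% contralaterally and 0.195 to 0.290% ipsilaterally. In KO libraries Etv4 had 0.3225 to 0.462% and 0.296 to 0.309%, without overlap. Fgfr2 had 1.61 to 1.71% in WT contralateral and 1.90 to 2.42% in WT ipsilateral libraries, the reverse of its direction in CPM. The WT means of Fgfr1 (3.34 and 3.78%), Etv5 (0.595 and 0.746%) and Fgf1 (0.914 and 1.11%) were also higher ipsilaterally on this ratio. For these genes the libraries overlapped. Etv4 was 0.195 to 0.290% in WT and 0.296 to 0.309% in KO ipsilateral libraries, narrowly apart, and Etv5 was 0.6795 to 0.819% and 0.648 to 0.781%, with overlap. Spry2 had 0.878 to 1.07% in WT and 0.590 to 0.903% in KO ipsilateral libraries, so on this ratio KO libraries were not the higher ones. The same held for Spry4 (0.331 to 0.413% in WT, 0.188 to 0.378% in KO) and Fgfrl1 (0.518 to 1.15% in WT, 0.586 to 1.01% in KO). Oligodendrocyte markers, of which 4 of 8 were lower in KO than in WT libraries contralaterally and 2 of 8 ipsilaterally, also moved with genotype. The shares of all genes called lower in KO were 1.41% contralaterally and 1.98% ipsilaterally. Of 7 pericyte and smooth muscle markers, 3 fell in WT ipsilateral libraries (median of the 7, -0.64), against 9.54% of all genes. In the ipsilateral comparison of genotypes 3 were higher in KO (median 0.50), against 4.33% of all genes. These were the directions of Fgfr3 and Etv4 in the same 2 comparisons. In KO hemispheres 0 of the 7 were called, where 5.45% of all genes were called higher and 0.841% lower. The 7 markers summed to 1103 to 1262 CPM in WT contralateral, 634 to 908 in WT ipsilateral, 1182 to 1402 in KO contralateral and 1039 to 1380.3 in KO ipsilateral libraries. Of 6 oligodendrocyte precursor markers, 2 fell in WT ipsilateral libraries (median -0.54) and 1 was higher in KO than in WT ipsilateral ones. The shares of all genes were the same 9.54% and 4.33%. These 6 markers summed to 78.7 to 82.4, 44.1 to 57.7, 84.2 to 105.7 and 70.8 to 94.7 CPM in the same order. All 6 ependymal markers had changes below 0 in both comparisons of hemispheres (median -0.89 in WT, -0.70 in KO). Of these, 1 was called lower in WT and 0 in KO mice, against 9.54% and 0.841% of all genes. All 6 did not overlap in KO hemispheres, against 38.8% of all genes. They summed to 568 to 1005, 305 to 708, 987 to 1012 and 517 to 717 CPM in the same order. The part of these markers in the results was not tested.

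Promoter sequences were looked up because ETS factors such as Etv4 and Etv5 bind DNA around the letters GGAA, and Etv5 and Fgfr3 were called together in the ipsilateral comparison. RefSeq windows of 250 bases before an annotated start (GRCm38.p6) were at hand for 6 of the 10 genes, in 8 windows. The 3 shown are those of Fgfr3 (chr5:33721474-33721723, plus strand) and Etv5 (chr16:22439571-22439820, minus strand) and that of Fgfrl1 (chr5:108693979-108694228, plus strand), which alone of the 8 holds the longer ETS motif CCGGAAGT. Each is written 5′ to 3′ on the gene's strand, with GGAA or its complement TTCC in capitals.
Fgfr3: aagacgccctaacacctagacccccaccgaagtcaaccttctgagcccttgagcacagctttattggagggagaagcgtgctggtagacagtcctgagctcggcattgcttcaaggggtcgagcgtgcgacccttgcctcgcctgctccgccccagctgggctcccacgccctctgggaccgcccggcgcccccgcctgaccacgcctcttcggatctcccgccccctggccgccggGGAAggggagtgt
Etv5: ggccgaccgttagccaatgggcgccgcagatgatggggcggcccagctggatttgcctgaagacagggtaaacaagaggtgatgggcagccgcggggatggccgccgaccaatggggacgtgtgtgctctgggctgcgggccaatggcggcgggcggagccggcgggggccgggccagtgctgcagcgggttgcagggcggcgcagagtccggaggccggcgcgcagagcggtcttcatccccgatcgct
Fgfrl1: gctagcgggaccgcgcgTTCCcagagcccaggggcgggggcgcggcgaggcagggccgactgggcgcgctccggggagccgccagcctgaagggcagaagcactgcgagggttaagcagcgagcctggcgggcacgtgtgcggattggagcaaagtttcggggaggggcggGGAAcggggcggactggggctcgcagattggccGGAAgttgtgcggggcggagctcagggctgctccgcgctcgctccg
The Fgfr3 window holds 1 match to GGAA on either strand, the Etv5 window 0 and the Fgfrl1 window 3. A second window of Fgfr3 holds 5 and a second one of Etv5 holds 4. Of 32851 windows of this length 93.45% hold GGAA, 2.88% hold CCGGAAGT and 6.75% hold the AP-1 motif TGANTCA, which none of the 8 windows has. Both strands were searched, and CCGGAAGT contains GGAA. A match describes letters and shows no binding.

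The wider pathway was described from lists of other genes. Of 20 other ERK feedback and target genes 19 were found by symbol and tested. In WT ipsilateral libraries 10 of the 19 rose with none falling, where 9.61% of all genes were called higher and 9.54% lower. The 10 were Ccnd1, Dusp5, Dusp6, Fosl1, Hmga2, Lif, Myc, Phlda1, Spred3 and Spry1. Hmga2 had 0 CPM in all WT contralateral libraries. Fosl1 had 0.0826 to 3.04 CPM in WT and 0 to 0.252 CPM in KO contralateral libraries. Both passed the count filter only through ipsilateral libraries, so their entry among the genes tested depended on high ipsilateral counts. The count of 10 includes both, and that of 7 below includes Fosl1. The median of the 19 was 0.77 against -0.058 over all genes. In KO mice 7 of 19 rose (Ccnd1, Dusp5, Fosl1, Lif, Myc, Phlda1 and Spred3), against 5.45% of all genes. The median there was 0.77 against -0.011. Thus Etv4, itself an ERK target, fell in the comparison in which Ccnd1, Dusp5, Dusp6, Lif, Myc, Phlda1, Spred3 and Spry1 rose.

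Dusp6, a phosphatase that switches off ERK, had 56.5, 42.5 and 45.8 CPM in WT contralateral and 80.7, 69.4 and 67.8 CPM in WT ipsilateral libraries, without overlap (0.59 ± 0.17, edgeR adjusted p = 0.0308). Its KO change was 0.37 ± 0.17 (0.184). Spry1, another Sprouty gene, rose in WT mice (0.77 ± 0.24, edgeR adjusted p = 0.0433) and was lower in KO than in WT ipsilateral libraries (-0.91 ± 0.24, 0.0445), opposite in sign to Spry2 and Spry4. Its ipsilateral levels were 28.2 to 43.2 CPM in WT and 15.9 to 21.6 CPM in KO mice. Lif, a cytokine of the interleukin-6 family, rose in both genotypes (2.39 ± 0.38 in WT, edgeR adjusted p = 0.00224; 3.003 ± 0.37 in KO, 0.00312) and was higher in KO than in WT ipsilateral libraries (1.26 ± 0.34, 0.0495). The ipsilateral genotype calls of Spry1 and Lif were lost without mouse 297, where 0 of all genes were called. Fosl1, an AP-1 subunit, had at most 3.04 CPM in any contralateral library and 17.2 to 67.0 CPM in the ipsilateral ones. Etv1, another PEA3 factor, did not pass in any comparison, its KO against WT difference being -0.80 ± 0.18 contralaterally (edgeR adjusted p = 0.0539) and -0.63 ± 0.18 ipsilaterally (0.0601), again opposite in sign to Etv4 and Etv5.

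**Figure D5:**
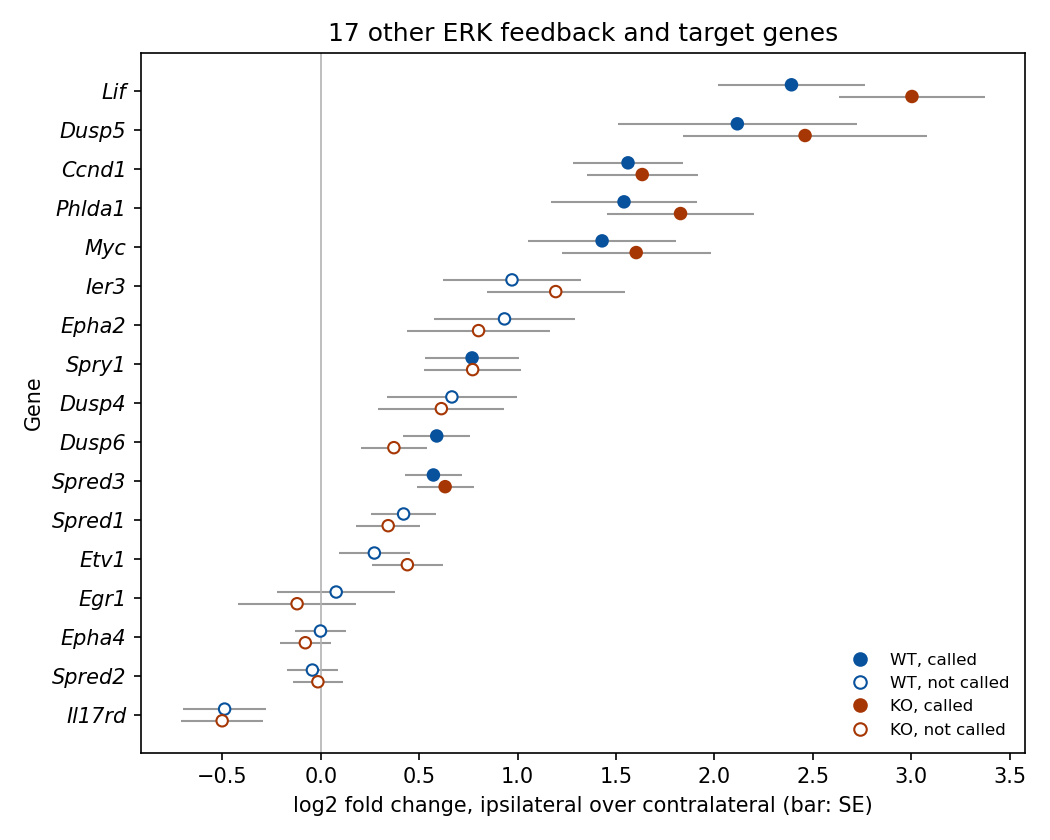
Log2 fold change of the ipsilateral over the contralateral hemisphere (x axis; bar, SE) for 17 of the other ERK feedback and target genes (y axis) in WT and KO mice, filled where the edgeR adjusted p was under 0.05. Fosl1 and Hmga2 are not drawn because their KO contralateral levels were at most 0.25 and 0.19 CPM, with libraries at 0; Lif is the highest in both genotypes, at 2.39 and 3.003.

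Heparan sulphate carriers and enzymes, which FGFs need for receptor binding, were called in both directions. Of 20 such genes, 3 rose (Ndst1, Hspg2 and Sdc1) and 3 fell (Gpc5, Gpc2 and Sdc2) in WT ipsilateral libraries, with a median of 0.078, and over all genes 9.61% were called higher and 9.54% lower. In KO mice 2 of the 20 rose (Ndst1 and Sdc1), against 5.45% of all genes. Ndst1, which places sulphate groups on heparan chains, had 119 to 195 CPM in WT contralateral and 395 to 552 CPM in WT ipsilateral libraries (1.498 ± 0.20, edgeR adjusted p = 0.00134), and it was lower in KO than in WT ipsilateral libraries (-0.74 ± 0.20, 0.0494). Gpc5, a glypican, went the other way, falling in WT mice (-1.20 ± 0.19, edgeR adjusted p = 0.0025) and being higher in KO ipsilateral libraries (1.02 ± 0.19, 0.0138). Sdc2 and Sdc3, syndecans, were also higher there (0.78 ± 0.16 and 0.95 ± 0.16), and Sulf2, which removes sulphate groups, was lower (-0.96 ± 0.26, edgeR adjusted p = 0.0492).

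Of 7 other receptors and co-receptors, 6 were tested. Flrt1, a membrane protein that binds FGF receptors, had 16.35 to 34.6 CPM in WT contralateral and 8.29 to 12.99 CPM in WT ipsilateral libraries, and 48.3 to 51.5 CPM and 21.3 to 30.04 CPM in KO ones. It fell in both genotypes (WT -1.40 ± 0.27, edgeR adjusted p = 0.00544; KO -1.03 ± 0.26, 0.0388) and was higher in KO than in WT ipsilateral libraries (1.28 ± 0.27, 0.0187). Flrt2 fell in WT mice. Among 22 signal transducers, 1 rose and 2 fell (Plcg1 and Frs3) in WT mice, where 9.61% of all genes were called higher and 9.54% lower. In KO mice 2 rose, Hras among them, and 0 fell, against 5.45% higher and 0.841% lower over all genes. Between genotypes 0 of 22 passed on either side. Over all genes 0.0835% were called higher and 1.41% lower contralaterally, and 4.33% higher and 1.98% lower ipsilaterally. With shares this low, 0 of 22 does not set the transducers apart from other genes. The medians of the 22 were 0.081 for the WT and 0.031 for the KO hemispheres.

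The genes whose log2 CPM followed each of the 10 most closely were found over the 12 libraries, as a description only, since the libraries share mice and groups. Fgfr3 was followed most closely by Dab1, Adgrg1 and Ttyh3 (Pearson r of 0.99 each), and Etv4 by Hlf and Acsbg1 (0.98 each). Etv5 was closest to Cs and Trib2 (0.98 each) and Ndp (0.97), Fgfrl1 to Ddx11 (0.97), Fgfr1 to Gtpbp1 (0.95) and Fgf2 to Arhgap35 (0.95). For Spry2 the closest was Me1 (0.93), for Spry4 Rwdd4a (0.92), for Fgfr2 Fah (0.92) and for Fgf1 Tmem38a (0.89).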

How the data were processed

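Each of the 12 libraries has a deposited table of 48709 genes with whole-number read counts, TPM and RPKM that the authors made, with mm10 as the genome build per the submitters' processing notes. An aligner, a counter and a strand setting were not given in the sources used here. edgeR 4.0.16 in R 4.3.3 was run on the deposited counts. After filterByExpr with a minimum count of 10 and TMM scaling, a robust quasi-likelihood model with 1 term per group was fitted over all 12 libraries, leaving 8 residual degrees of freedom. Adjustment was by Benjamini-Hochberg across the 15571 genes that remained, with calls at 0.05. SEs are approximate, being derived from the fold change and its F statistic, and intervals are at 95%.

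TPM deposited by the authors served for levels between genes, and RPKM deposited by the authors only for a check of the counts. The check of counts against RPKM was even across libraries (spread of the ratio 0.12 to 0.21% for 9 of the 10 genes) except for Fgf2 (8.45%). Alternatives were DESeq2 1.42.0, limma-voom and limma-trend on log2(TPM + 1) or log2(TPM + 0.1) with limma 3.58.1, RLE and upper-quartile scaling, other filters, a fit of the 2 groups compared, the mouse as a block, and fits without each library or mouse. Pairing comes from the animal number, both hemispheres being from 1 mouse. Over 12551 genes, deviations from the group means correlated within mouse 296 at 0.70, within 297 at -0.037, within 474 at 0.44, within 295 at 0.39, within 298 at 0.50 and within 300 at 0.20. The procedure was tested on simulated counts with changes in the WT ipsilateral group only. These were drawn independently for each library without an effect of the mouse, so that test does not cover 2 related libraries per mouse. The labels name separate animals, and the 3 mice per group limit what can be called. The main fit treats the 2 libraries of a mouse as independent. Its p-values thus measure the spread between the libraries of a group, pooled over the 4 groups. With the mouse as a block, p-values for the hemispheres measure the spread of the differences within mice.

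The 10 genes, the lists of pathway genes and markers, and the tests were chosen with earlier results of these data known. Genes outside the 10 are named where they passed in a list or belong to a fixed set (Fgfr4, Fgf9, Spry1, Dusp6 and Etv1), and some genes that this rule picked are not reported here.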

Additional observations from a re-analysis of the deposited data

How the results depend on the processing

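The number of the 10 genes called was 2 in WT hemispheres and 6 with the mouse as a replicate block, and 2 to 4 without single libraries or mice. In KO hemispheres it was 0, against 1 with DESeq2, 1 in a fit of the 2 groups compared, 2 with the replicate block and 0 to 2 in the leave-out fits. For the contralateral genotypes it was 0, against 1 with DESeq2 (Etv5) and 0 to 3 in the leave-out fits (3 without WT contralateral library 474 or mouse 474). For the ipsilateral genotypes it was 3, against 1 in a fit of the 2 groups compared (Etv4) and 0 to 4 in the leave-out fits, with 0 without WT ipsilateral library 297 or mouse 297, 298 or 300. The interaction called 0 in every fit, the replicate block included. Over all genes the ipsilateral genotypes had 983 calls, 1737 with DESeq2, 196 in the fit of 2 groups and 0 to 1351 in leave-out fits (65 without WT ipsilateral library 297, 0 without mouse 297). The contralateral ones had 233, 660 with DESeq2 and 0 to 391 in leave-out fits (0 without KO contralateral library 298 or 300). WT hemispheres had 2982, 4641 with the block, 1579 in the fit of 2 groups and 659 to 3610 in leave-out fits, and KO hemispheres 979, 2012 with DESeq2, 2498 with the block, 1790 in the fit of 2 groups and 2 to 2282 in leave-out fits. The calls of Fgfr3 and Etv4 in WT hemispheres held in 9 of 9 leave-out fits, with adjusted p up to 0.0328 and 0.0466. For single genes outside the 10, values under the alternatives were not kept. Their ipsilateral calls between genotypes, those of Spry1, Lif, Ndst1, Sulf2 and Fgf13 among them, were all lost without mouse 297.

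Of 1070 log2 fold changes under alternatives, 975 kept their sign and side of the threshold, 19 lost the call, 29 gained it and 47 changed sign. None of these 47 was called before or after the change, and the cause was not tested. In the TPM fits with pseudocounts of 1 and 0.1 the contralateral genotype difference was 0.078 and 0.079 for Fgf1 and 0.086 and 0.087 for Fgfr1, the ipsilateral one -0.057 and -0.058 for Fgfr2, and the interaction -0.18 and -0.20 for Spry4 and -0.025 and -0.024 for Etv5. The fit of 2 groups gave -0.0046 for Fgfr2 ipsilaterally, and limma-voom -0.0027 for the interaction of Spry4. Leave-out fits ranged from -0.20 to 0.54 for Fgfrl1 in WT hemispheres and from -0.24 to 0.087 for Fgf1 in KO hemispheres. Between genotypes they ranged contralaterally from -0.28 to 0.25 for Fgfr1 and -0.21 to 0.16 for Fgf1, and ipsilaterally from -0.059 to 0.095 for Fgfr2 and -0.20 to 0.55 for Fgf2. For the interaction they ranged from -0.0090 to 0.73 for Fgfr1, -0.51 to 0.18 for Spry2, -0.23 to 0.22 for Spry4, -0.11 to 0.67 for Fgfrl1, -0.10 to 0.38 for Etv5 and -0.58 to 0.17 for Fgf2. Groups of 3 libraries limit the precision, and each of the 10 genes had 4616 or more counts over the 12 libraries.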
